A study of Mus musculus with 6 samples.

Results

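ERK feedback and target genes are transcripts whose levels follow signalling through the ERK cascade, and 10 of them are described here: the Sprouty genes Spry1, Spry2 and Spry4, the Sprouty-related genes Spred1 and Spred2, the phosphatase genes Dusp4 and Dusp6, the transcription factor genes Etv4 and Etv5, and Egr1. They were taken by name from a table of read counts for 27179 Entrez gene identifiers, and all 10 had a row and passed the filter on low counts that left 14199 genes for testing. The counts came from poly(A)-selected RNA of mouse embryonic stem cells of the ES-E14TG2a background. In 3 libraries, A, B and C, the cells carried FLAG-tagged Trim71 with the R783H change (R783H), and in 3 more, also A, B and C, FLAG-tagged Trim71 without it (WT). Trim71 belongs to the TRIM-NHL family of proteins that bind RNA, and R783H is described by the submitters as causing hydrocephalus. All 6 libraries came from cells grown on gelatin with leukemia inhibitory factor (1000 U/mL) and a pair of inhibitors, 3 uM CHIR99021 against GSK3 and 1 uM PD0325901 against MEK, so no library shows these genes without MEK inhibition. Values given for the 3 libraries of a group are in the order A, B, C throughout. What the letters stand for is not in the labels: clones, cultures or library preparations. The p-values therefore measure the spread between these libraries, which may be technical.

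In the ERK cascade a ligand such as a fibroblast growth factor activates a receptor tyrosine kinase, and the signal passes through adaptors to Ras, then to the kinases Raf, MEK and ERK. Active ERK switches on early transcription factors, and it also induces its own inhibitors: Sprouty and Spred proteins act upstream of ERK, and dual-specificity phosphatases remove the phosphates that activate it. In mouse embryonic stem cells Fgf4 signalling through ERK prepares cells to leave the naive state, and blocking MEK helps to hold them there.

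Library totals ran from 20894277 to 29079670 counts, and the 3 R783H libraries were the deepest. Trim71 itself, in CPM (counts scaled to a common library size), stood at 152, 129 and 150.5 in R783H and at 131, 131 and 159 in WT. The groups overlapped and Trim71 was not called, that is, its adjusted p was not under 0.05 (log2 fold change 0.03, adjusted p 0.743 by edgeR's quasi-likelihood test), but with an offset for transcript length and GC content it was called lower (-0.26, adjusted p 0.0021 by the same test). Gene counts cannot show the R783H base change, so they do not check the labels. The 8 embryonic stem cell markers examined had a summed level of 6217 to 6299 CPM in R783H and 6548 to 6643 CPM in WT, 1 of them called higher and 3 lower. Summed primitive endoderm markers lay at 10.2 to 11.1 CPM in R783H against 5.18 to 7.62 CPM in WT, with 2 of 5 tested markers called higher and none lower. Mesoderm markers lay at 37.3 to 42.5 CPM against 63.0 to 67.2 CPM, with 4 of 5 tested called lower, and trophoblast markers at 49.6 to 58.0 against 69.1 to 73.7 CPM, with 2 of 4 tested lower. Neural markers summed to 80.9 to 89.3 CPM in R783H against 115 to 120.3 CPM in WT, with 1 of 3 tested called higher and 1 lower, and fibroblast markers to 2.18 to 3.13 against 3.28 to 3.86 CPM, with 1 of 3 tested lower. Over all tested genes 33.5% were called higher and 30.9% lower. No marker of these lists was at 0 in all 6 libraries. The part of these markers in the results that follow was not tested, and in bulk RNA fewer cells of a type and less RNA per cell cannot be told apart.

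The 10 genes did not move as a block between R783H and WT. Of the 10, 3 rose in R783H (Spry1, Spry2 and Spred2), 5 fell (Spry4, Dusp4, Dusp6, Etv4 and Egr1), and Spred1 and Etv5 did not pass the test. Calls rest on edgeR's quasi-likelihood test at an adjusted p under 0.05 (Benjamini-Hochberg, over the 14199 genes). By that rule 64.5% of all tested genes were called, 33.5% higher and 30.9% lower, so 8 called genes of 10 is to be read against a table in which most genes were called. R783H and WT libraries were fully separated in CPM for 7 of the 10 genes, where 68.1% of all tested genes showed no overlap. The median log2 fold change (R783H over WT) of the 10 was -0.17, against 0.03 for all tested genes, and the median size of the change was 0.44 against 0.34. Among the 8 called genes 5 changed by less than 1.5-fold (Spry2, Spry4, Spred2, Dusp4 and Dusp6). Etv4 and Egr1 fell by more than 2-fold and Spry1 rose by 1.63-fold.

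**Figure D1:**
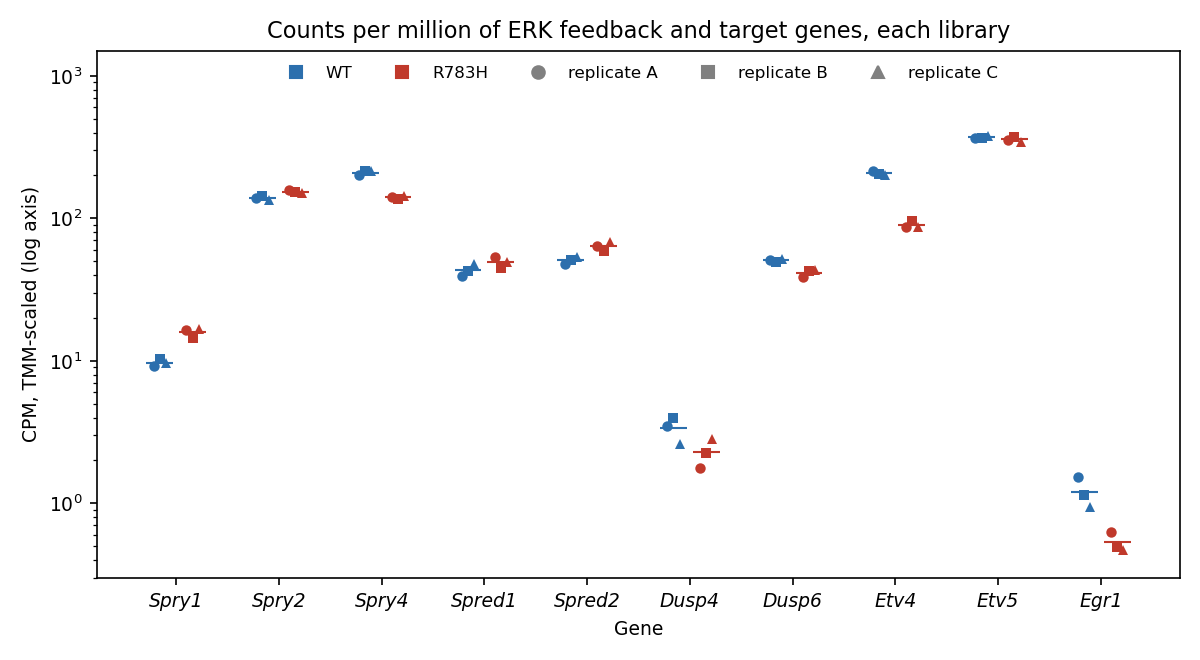
CPM after TMM scaling (log axis) of the 10 genes in each WT (blue) and R783H (red) library, with replicate letters as symbols and the group mean as a line. The groups stand apart for 7 genes, most widely for Etv4 and Egr1, and they overlap for Spred1, Dusp4 and Etv5.

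Sprouty proteins are feedback inhibitors that act between the receptor and Raf, and the 3 Sprouty genes went in different directions. Spry2, the most abundant Sprouty transcript per length, stood at 158, 154 and 151 CPM in the R783H libraries and at 139, 144 and 135 CPM in the WT libraries. The lowest R783H library was above the highest WT library, but the difference was small, 1.11-fold (log2 fold change 0.15, SE 0.04, adjusted p 0.0118 by edgeR's quasi-likelihood test). That call was lost without R783H A (log2 fold change 0.12, adjusted p 0.086) or without WT C (0.12, adjusted p 0.0604) by edgeR's quasi-likelihood test, and with DESeq2 on all libraries (adjusted p 0.0543).

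Spry4 had 142, 137 and 144 CPM in the R783H libraries and 200.5, 214 and 214 CPM in the WT libraries. Every R783H library was far below every WT library, and the WT level was 1.49-fold that of R783H (log2 fold change -0.57, SE 0.05, adjusted p 1.22e-06 by edgeR's quasi-likelihood test). Of all tested genes 27.4% changed by more in either direction. Spry1, the least abundant of the 3, had 16.4, 14.4 and 16.6 CPM in the R783H libraries against 9.16, 10.2 and 9.70 CPM in the WT libraries. It was higher in every R783H library, by 1.63-fold (log2 fold change 0.70, SE 0.09, adjusted p 2.87e-05 by edgeR's quasi-likelihood test).

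Although single Sprouty genes rose and fell, their summed level per length differed little. This depends on the division by length, which gives Spry4 (4755 nt) less weight than Spry2 (2087 nt). In mean CPM Spry4 stood at 209 in WT and 141 in R783H, Spry2 at 139 and 154, and Spry1 at 9.70 and 15.8. Without that division the fall of Spry4 was larger than the rises of Spry2 and Spry1 together. In CPM per kilobase of the longest annotated transcript (RPKM), Spry1, Spry2 and Spry4 together gave 111, 108 and 109 RPKM in the R783H libraries and 112, 118 and 113 RPKM in the WT libraries. The highest R783H sum lay just below the lowest WT sum, and the means were close, at 109 ± 1.83 and 114 ± 2.97 RPKM (SD, n = 3 each). The makeup of the sum differed: Spry4 gave 27.1 ± 0.68% of it in R783H and 38.6 ± 1.11% in WT, Spry2 gave 67.6 ± 1.00% and 58.4 ± 1.17%, and Spry1 gave 5.22 ± 0.35% and 3.06 ± 0.10% (SD, n = 3 each).

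The stretches of 250 bases before the annotated starts of Spry1, Spry2 and Dusp6 are shown because ETS factors such as Etv4 and Etv5 bind promoters, and these stretches belong to members called in each direction, Spry1 and Spry2 higher and Dusp6 lower. They are from RefSeq on GRCm38.p6, and stretches of 6 of the 10 genes were examined. The 3 shown are written 5′ to 3′ on the gene's strand: Spry1 at chr3:37639697-37639946 (plus strand), Spry2 at chr14:105896820-105897069 (minus strand) and Dusp6 at chr10:99262981-99263230 (plus strand). Capitals mark the ETS core letters CGGAA on either strand.
Spry1: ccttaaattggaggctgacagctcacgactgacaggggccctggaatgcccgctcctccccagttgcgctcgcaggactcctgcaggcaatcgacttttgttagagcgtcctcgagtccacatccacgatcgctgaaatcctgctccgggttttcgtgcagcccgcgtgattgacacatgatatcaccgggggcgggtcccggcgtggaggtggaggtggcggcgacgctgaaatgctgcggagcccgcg
Spry2: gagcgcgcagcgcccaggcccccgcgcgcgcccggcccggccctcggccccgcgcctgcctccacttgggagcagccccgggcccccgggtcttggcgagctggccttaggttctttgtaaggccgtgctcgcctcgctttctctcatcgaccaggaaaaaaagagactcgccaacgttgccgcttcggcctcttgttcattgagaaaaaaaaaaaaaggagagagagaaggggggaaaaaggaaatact
Dusp6: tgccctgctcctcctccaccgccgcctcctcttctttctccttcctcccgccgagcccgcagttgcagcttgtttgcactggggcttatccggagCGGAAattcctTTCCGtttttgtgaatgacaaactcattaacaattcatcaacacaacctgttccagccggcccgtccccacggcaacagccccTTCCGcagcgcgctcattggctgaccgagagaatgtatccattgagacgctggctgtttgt
Neither Sprouty stretch holds these letters, and the Dusp6 stretch holds 3 copies, where 25.2% of 32851 stretches of the same length hold at least 1. The Spred2 stretch, of a gene that rose, holds 2 copies, that of Spred1 holds 1 and the 2 Etv5 stretches hold none. Of the members that fell, only the Dusp6 stretch was examined, and those of Spry4, Dusp4, Etv4 and Egr1 were not. These counts therefore cannot show whether the letters separate members that rose from those that fell. No stretch of the 6 genes, these 3 and those of Spred1, Spred2 and Etv5, holds the cyclic AMP response element TGACGTCA (1.55% of all stretches), the AP-1 letters TGACTCA (4.46%), the TCF/LEF letters CTTTGA (13.8%) or a serum response (CArG) box (1.47%), on either strand. The GC box letters GGGCGG (32.7%) are in the Spry1, Spred1 and Spred2 stretches and in 1 of the 2 Etv5 stretches, and in Spred2 they overlap an ETS core match. That match lies in an exon of Spred2 in GENCODE M21, and the Etv5 stretch with GC box letters partly overlaps Etv5 exons. Of the stretches shown, that of Spry1 overlaps along its whole length an exon of the model Gm42922 on the opposite strand. The Spry2 and Dusp6 stretches overlap no exon. Dusp6 was the least GC-rich of the 3 shown, at 56.4%, against 62.4% in both Sprouty stretches and a median of 52.4% over all stretches. A match of letters is a description of this window and is not evidence of a bound factor.

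Spred proteins block the activation of Raf by Ras. Spred2 stood at 64.0, 58.6 and 67.7 CPM in the R783H libraries and at 48.0, 50.7 and 53.4 CPM in the WT libraries. Each R783H library was above each WT library, and the rise was 1.25-fold (log2 fold change 0.32, SE 0.06, adjusted p 0.00103 by edgeR's quasi-likelihood test). Spred1 had 53.8, 44.5 and 49.3 CPM in the R783H libraries and 39.6, 42.4 and 47.7 CPM in the WT libraries. R783H B was below WT C, and the difference did not pass the test (log2 fold change 0.19, SE 0.08, adjusted p 0.0645 by edgeR's quasi-likelihood test). Spred1, the longest transcript of the 10, at 6016 nt, was called higher without R783H B (log2 fold change 0.23, adjusted p 0.00581) or without WT C (0.26, adjusted p 0.0208), both by edgeR's quasi-likelihood test. With the length and GC offset its sign turned, to -0.04. Spred1 and Spred2 together gave 23.3, 20.6 and 23.4 RPKM in R783H and 17.4, 18.4 and 19.9 RPKM in WT, so their sum was higher in each R783H library.

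Dusp6 is a cytoplasmic phosphatase that acts selectively on ERK, and Dusp4 a nuclear phosphatase of ERK and related kinases. Dusp6 had 39.0, 42.5 and 43.2 CPM in the R783H libraries and 51.1, 49.5 and 51.5 CPM in the WT libraries. All R783H libraries were lower, with a WT level 1.22-fold that of R783H (log2 fold change -0.29, SE 0.06, adjusted p 0.000857 by edgeR's quasi-likelihood test). Dusp4 was weakly expressed, with 53, 64 and 84 counts in the R783H libraries and 70, 98 and 56 counts in the WT libraries. As CPM these were 1.76, 2.26 and 2.84 against 3.47, 3.996 and 2.62, so R783H C was above WT C and the groups overlapped. Dusp4 was called lower (log2 fold change -0.56, SE 0.20, adjusted p 0.0299 by edgeR's quasi-likelihood test). That call was lost without R783H A (log2 fold change -0.42), WT A (-0.55) or WT B (-0.41), where the adjusted p was 0.0939, 0.0701 and 0.149 by edgeR's quasi-likelihood test.

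Etv4 and Etv5 encode closely related ETS transcription factors of the PEA3 group, both known targets of FGF and ERK signalling, and they differed in response. Etv4 had 86.5, 95.4 and 87.1 CPM in the R783H libraries and 215, 204 and 201 CPM in the WT libraries. The WT libraries held 2.31-fold the R783H level with a wide gap between the groups (log2 fold change -1.21, SE 0.05, adjusted p 3.55e-08 by edgeR's quasi-likelihood test). In only 5.63% of tested genes was the change larger in either direction. Etv5 had 357, 375 and 343 CPM in the R783H libraries and 367, 367 and 375 CPM in the WT libraries. R783H B was within the WT range, and no change passed the test (log2 fold change -0.04, SE 0.04, adjusted p 0.388 by edgeR's quasi-likelihood test). It was called lower without R783H B (log2 fold change -0.10, adjusted p 0.0141) and with the length and GC offset (-0.12, adjusted p 0.00813), both by edgeR's quasi-likelihood test. Together the 2 genes gave 128 ± 5.89 RPKM in R783H and 179 ± 2.41 RPKM in WT (SD, n = 3 each), and Etv4 gave 29.3 ± 0.58% of that sum in R783H against 48.2 ± 1.17% in WT.

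Egr1, an immediate early zinc finger factor induced through serum response elements, was barely detected in these cells. It had 19, 14 and 14 counts in the R783H libraries and 31, 28 and 20 counts in the WT libraries. In CPM it was at 0.632, 0.493 and 0.473 against 1.54, 1.14 and 0.937, so every R783H library was lower, from few counts. The WT level was 2.23-fold that of R783H (log2 fold change -1.16, SE 0.27, adjusted p 0.00288 by edgeR's quasi-likelihood test). Egr2, Egr3 and Egr4, its relatives, had at most 6 counts in a library and were not tested.

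**Figure D2:**
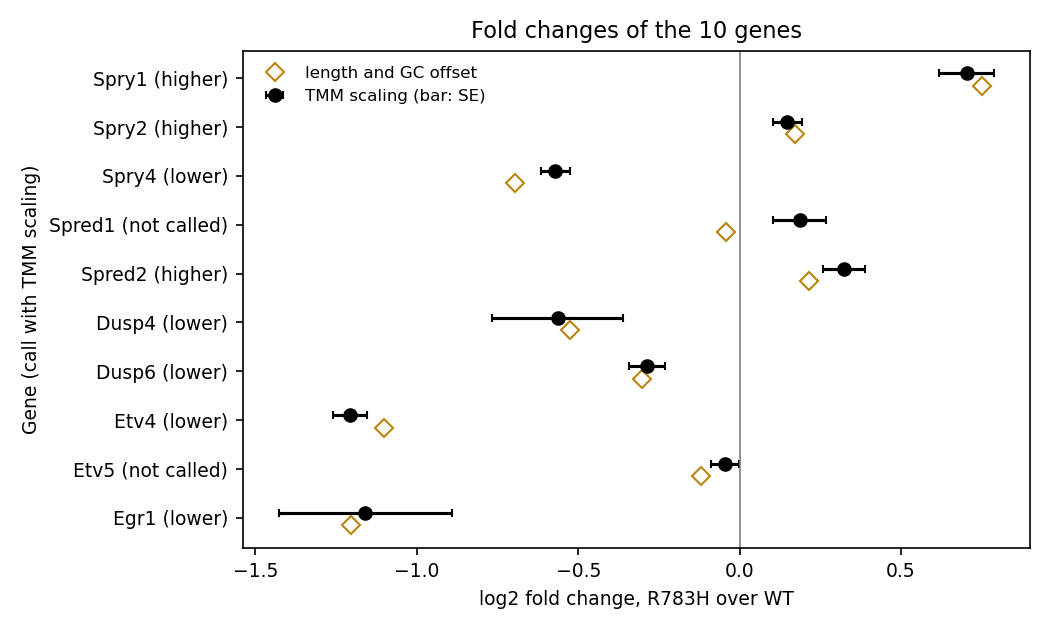
Log2 fold change (R783H over WT) of each of the 10 genes with its SE (black), beside the value with an offset for transcript length and GC content (open diamonds). Values run from -1.21 for Etv4 to 0.70 for Spry1, and Spred1 alone lies on the other side of 0 with the offset.

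In WT the order of levels per length was Etv5 at 93.0 RPKM, Etv4 at 86.4, Spry2 at 66.7, Spry4 at 44.0, Dusp6 at 18.1, Spred2 at 11.4, Spred1 at 7.18, Spry1 at 3.50, Dusp4 at 1.23 and Egr1 at 0.269 RPKM. No neighbours in this order overlapped between their WT libraries. Etv5 was above 94.2% of tested genes with a length and Egr1 above 7.68%, so the 10 genes spanned nearly the whole range of expression under MEK inhibition. In R783H Etv4, at 37.4 ± 2.09 RPKM, stood below Spry2, at 73.9 ± 1.63 RPKM (SD, n = 3 each). Dusp6 and Spred2, at 14.9 and 14.3 RPKM, were the only neighbours whose R783H libraries overlapped.

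A ratio of counts between members of a family within a library does not depend on library scaling, and 5 such ratios were compared between the groups. The log2 ratio of Etv4 to Etv5 was -2.05, -1.97 and -1.98 in the R783H libraries and -0.77, -0.84 and -0.90 in the WT libraries, a difference of -1.16. For Spry4 to Spry2 it was -0.15, -0.17 and -0.07 in R783H and 0.53, 0.58 and 0.67 in WT, so Spry4 had more counts than Spry2 in every WT library and fewer in every R783H library. The Spry1 to Spry2 ratio was higher in R783H by 0.55, at -3.29 ± 0.12 against -3.84 ± 0.07 on the log2 scale (SD, n = 3 each). For these 3 ratios the groups did not overlap, and the two-sided exact permutation test gave p = 0.1, the smallest that 3 against 3 allows, or 0.167 after Benjamini-Hochberg adjustment over the 5 ratios. The Spred1 to Spred2 ratio differed by -0.14 (two-sided exact permutation p = 0.3, adjusted 0.375) and the Dusp4 to Dusp6 ratio by -0.27 (two-sided exact permutation p = 0.4, adjusted 0.4), and the groups overlapped in both.

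**Figure D3:**
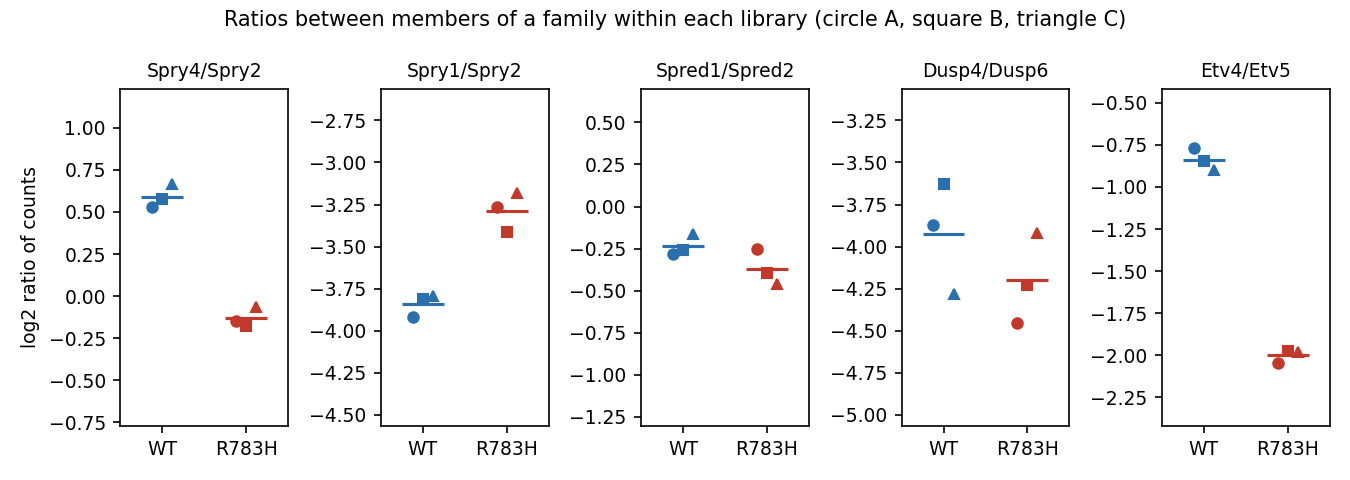
Log2 ratio of raw counts between 2 members of a family in each library, WT in blue and R783H in red, with the group mean as a line. Each panel spans the same height, and the largest step is that of Etv4 to Etv5, -1.16.

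Of 78 other genes of the cascade, listed by role, 67 were tested, and 24 were called higher and 29 lower, in a table where 33.5% and 30.9% of all tested genes were. Among 6 tested ligands 1 was higher and 4 lower. Fgf4, the FGF that embryonic stem cells secrete, went from 271 ± 2.10 CPM in WT to 335 ± 8.08 CPM in R783H (SD, n = 3 each), a rise of 0.31 (SE 0.04) on the log2 scale, while Hbegf, a ligand of the EGF receptor, stood at 16.1 ± 0.54 against 24.8 ± 0.64 CPM (SD, n = 3 each). Among 10 tested receptors, which are long (median 5628 nt), 5 were higher and 1 lower, or 3 higher and 2 lower with the length and GC offset, which took their median log2 fold change from 0.26 to 0.11, and the largest well-counted rise was in Met, the receptor for hepatocyte growth factor, from 4.72 ± 0.58 to 10.5 ± 1.29 CPM (SD, n = 3 each; log2 fold change 1.15, SE 0.12). Of 10 adaptors and Ras regulators 5 were higher and 4 lower. Sos2, a Ras exchange factor, rose by 1.15 (SE 0.10) on the log2 scale, and the adaptor Shc1 fell by 0.31 (SE 0.05).

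Within the Ras, Raf, MEK and ERK tier 3 of 12 genes rose and 6 fell, and the median log2 fold change was -0.10. Braf (9728 nt) rose by 0.60 (SE 0.08) on the log2 scale, or by 0.24 with the length and GC offset, and Hras fell by 0.66 (SE 0.07). The MEK genes, whose products PD0325901 inhibits, were lower in R783H: Map2k1 at 155 ± 2.14 against 169 ± 2.58 CPM (log2 fold change -0.12, SE 0.04) and Map2k2 at 135 ± 6.54 against 175 ± 8.86 CPM (-0.37, SE 0.05, or -0.24 with the offset), with n = 3 and SD in each case. Mapk3, which encodes an ERK kinase, was called lower, at 86.4 ± 4.17 against 97.8 ± 2.80 CPM (SD, n = 3 each; log2 fold change -0.18, SE 0.05). Map2k1 lost its call without R783H C (adjusted p 0.0517) or WT B (0.0939), and Mapk3 without WT B (0.0511), all by edgeR's quasi-likelihood test. Scaling by total count alone ended the calls of Map2k1 and Mapk3 (adjusted p 0.373 and 0.0924 by edgeR's quasi-likelihood test). With the length and GC offset Mapk3 was not called (log2 fold change -0.06, adjusted p 0.203 by edgeR's quasi-likelihood test).

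Of 5 kinases that ERK activates 3 were higher and 2 lower, with Rps6ka2 up by 0.65 (SE 0.05) and Mknk2, a kinase of the cap-binding protein eIF4E, at -0.60 (SE 0.05) on the log2 scale. Of 7 other tested feedback inhibitors 4 were higher and 3 lower. Spred3, the third Spred gene, had 10.2, 7.19 and 7.87 CPM in the R783H libraries and 5.54, 5.83 and 6.19 CPM in the WT libraries, so it was higher in every R783H library (log2 fold change 0.52, SE 0.14). Dusp9, a further phosphatase of ERK, had 13.8, 16.9 and 14.9 CPM in the R783H libraries and 68.7, 64.2 and 61.9 CPM in the WT libraries. The WT level of Dusp9 was 4.28-fold that of R783H (log2 fold change -2.10, SE 0.08), a larger change than in any of the 10 genes, and 0.796% of tested genes changed by more. Of 17 other tested early targets and ERK-responsive factors 3 rose and 9 fell (median log2 fold change -0.24). Myc fell from 65.4 ± 2.33 CPM in WT to 20.0 ± 1.11 CPM in R783H (SD, n = 3 each; log2 fold change -1.71, SE 0.06), and Elk3, a ternary complex factor that partners SRF, rose by 0.98 (SE 0.07). Adjusted p values of the called genes named here for the cascade ran from 1.19e-08 for Myc to 0.0186 for Map2k1 by edgeR's quasi-likelihood test.

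**Figure D4:**
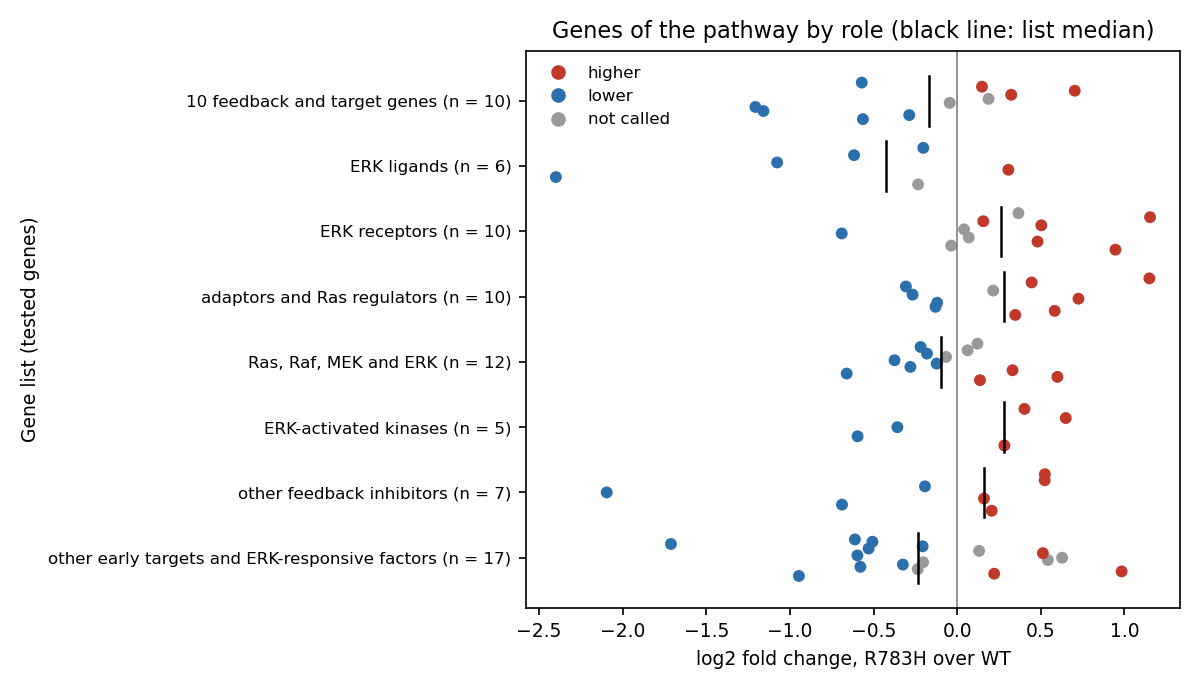
Log2 fold change (R783H over WT) of each tested gene by role in the cascade, coloured by call, with the list median as a black line. Every list holds genes called in each direction, and medians run from -0.42 for the ligands to 0.28 for the adaptors and the ERK-activated kinases, or 0.09 and 0.11 for these last lists with the length and GC offset.

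Fold changes in these libraries moved with transcript length. With tested genes in 10 bins of length, in the shortest bin (up to 1406 nt) the median log2 fold change was -0.17 and in the longest (from 6792 nt) 0.31. Spry4 (4755 nt) and Egr1 (4484 nt) fell although genes of that length had a median of 0.11, and Spry1 (2773 nt) rose although genes of that length had a median of -0.05. Spred1 (6016 nt) and Spred2 (4449 nt) lay on the side to which long transcripts moved, whose medians were 0.19 and 0.07. With the offset for length and GC content Spry1 was at 0.75, Spry2 at 0.17, Spred2 at 0.22, Spry4 at -0.70, Dusp4 at -0.52, Dusp6 at -0.30, Etv4 at -1.10 and Egr1 at -1.20, all still called in the same direction. R783H B differed from the other R783H libraries along this axis: its difference from the mean of A and C correlated with length across 13067 genes (Spearman's rho -0.338, across genes that share these libraries and are not independent). Among the 10 genes R783H B was the lowest R783H library for Spry1, Spry4, Spred1 and Spred2 and the highest for Etv4 and Etv5. Spry4, Spred1, Spred2 and Etv4 (2395 nt) thus lay along this axis. Spry1 and Etv5 went against it, as Spry1 (2773 nt) is shorter and Etv5 (3975 nt) longer than the median of tested genes, 3364 nt.

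**Figure D5:**
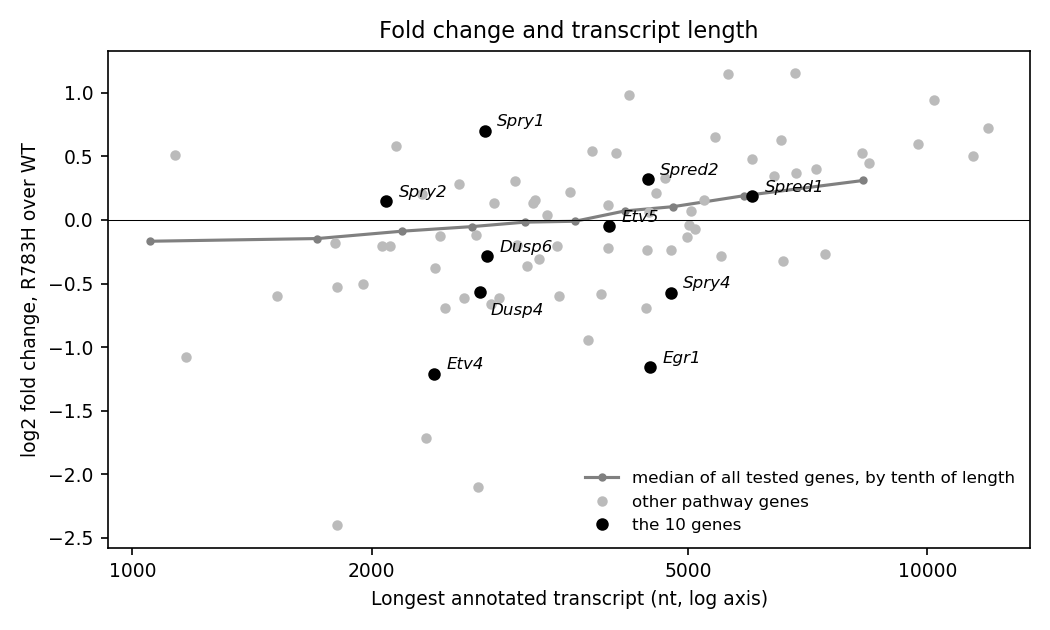
Log2 fold change (R783H over WT) against the longest annotated transcript (log axis) for the 10 genes (black), the other genes of the cascade (grey) and the median of all tested genes in 10 bins of length (grey line). The line climbs from -0.17 to 0.31, and of the 10 genes Spred1 lies on it and Etv4 and Egr1 far below it.

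On GRCm38, the assembly also called mm10 that the submitters' processing notes name, the genes lie at chr3:37639947-37644598 (Spry1), chr14:105891947-105896819 (Spry2), chr18:38586247-38601415 (Spry4), chr2:117121374-117182279 (Spred1), chr11:19924375-20024026 (Spred2), chr8:34807297-34819894 (Dusp4), chr10:99263231-99267489 (Dusp6), chr11:101769742-101785371 (Etv4), chr16:22381309-22439719 (Etv5) and chr18:34859823-34864984 (Egr1) in GENCODE M21. Exons of Spry1 overlap the antisense model Gm42922, and the Etv5 transcript matches the gene model Gm4798 at 98.6% identity over 1700 nt. The counts of Spry1 and Etv5 are uncertain to the extent that the counting, whose use of strand is not given in the sources used here, split or merged such reads. Exons of Trim71, Braf, Elk3 and Spred3 also overlap a gene on the opposite strand, and Shc1 has a near-identical stretch in another gene model. Rps6ka2 (5406 nt) matches transcripts of Sod2 at 98.3% identity over 3110 nt, and a further gene model over a similar length. The count of Rps6ka2 is therefore uncertain in the same way.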

How the data were processed

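Poly(A)-selected RNA was sequenced from 3 R783H and 3 WT libraries, grouped by title, with 0 columns unassigned. The deposited values are raw read counts per Entrez gene, from 1 alignment file per library per the file headers. The submitters' processing notes name CASAVA 1.4, HISAT2, SAMtools and mm10; the counting tool is not given in the sources used here. RefSeq (GRCm38.p6) gave symbols for 25275 of 27179 identifiers. GENCODE M21 gave the longest transcript, its length and GC content for 13067 of 14199 tested genes. With R 4.3.3, genes were kept by edgeR 4.0.16's filterByExpr (minimum count 10, minimum total 15), scaled by TMM and tested with its quasi-likelihood test on group, two-sided, with Benjamini-Hochberg adjustment. CPM use TMM-scaled totals, and 3 counts equal 0.0998 to 0.148 CPM. The SE is the log2 fold change over the root of F. Alternatives used limma 3.58.1, DESeq2 1.42.0, other scalings and filters, equal depth, a replicate block, left-out libraries and a length and GC offset (mgcv smooths per library). Steps were tested on simulated data. All 10 genes and the pathway and marker lists were chosen with earlier results of these data known. From each pathway list the called gene with the largest rise and fall and a mean of at least 50 counts in the higher group is named, plus Trim71, Map2k1, Map2k2 and Mapk3 (another result under this rule is not reported here); Egr2, Egr3 and Egr4 were added after their values were seen. Reads were counted with no molecular identifiers named, so PCR copies may be included and these floors cover counting error only.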

Additional observations from a re-analysis of the deposited data

How the results depend on the processing

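Over 16 alternatives 2 to 4 of the 10 genes were called higher and 4 to 6 lower, and 8161 to 9882 of all genes were called. Spry1, Spry4, Spred2, Dusp6, Etv4 and Egr1 kept their call and direction in all 16. Dusp4 lost its call in 5 (also with total counts, -0.48, and at equal depth, -0.57) and Spry2 in 3. With total counts, which moved the median of all genes from 0.03 to 0.11, Etv5 turned to 0.036. Spred1 turned to -0.043 with the length and GC offset; left-out libraries moved Spred1 between 0.10 and 0.26. Trim71 turned to -0.261 with the offset and ranged from -0.022 to 0.131 without single libraries. The offset moved the ratio differences of Spry4 to Spry2 to -0.87, Spred1 to Spred2 to -0.26 and Etv4 to Etv5 to -0.98; the cause was not tested. Same-lettered libraries did not deviate together (r = -0.070, 0.007 and 0.085), nor did every library correlate best with its own letter, so the letters are not taken to pair libraries; the fit with a replicate block called 9260 genes and, of the 10 genes, 4 higher (Spred1 added, adjusted p 0.0404 by edgeR's quasi-likelihood test) and 5 lower. Egr1 and Dusp4 rest on fewer than 100 counts per library, which limits their precision.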
